A study of Capra hircus with 40 samples.

Results

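The prostaglandin enzymes and receptors were followed as 10 genes, found in the count table by their NCBI gene numbers and goat RefSeq symbols, out of 30049 genes listed and 28910 that carry a gene number. They are the cyclooxygenases PTGS1 (gene number 102170328) and PTGS2 (100860905), the synthases PTGES (102181874) and PTGIS (100860894), the receptors PTGER2 (102181502), PTGER3 (102178500), PTGER4 (102188631), PTGFR (102173625) and PTGIR (102169991), and the inactivating enzyme HPGD (102172997). The rule itself uses gene names and no measured value, though the set was proposed with earlier results of these data known. All 10 had counts in each of the 40 libraries, and all 10 passed the low-count filter in every fit.

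Prostaglandins are short-range lipid signals made from arachidonic acid, which phospholipases release from membranes. Cyclooxygenases turn it into a common precursor, terminal synthases make prostaglandin E, prostaglandin F or prostacyclin from that precursor, each product acts through its own cell surface receptors, and HPGD oxidises the spent signal. In ruminants, prostaglandin F from the endometrium ends the life of the corpus luteum through PTGFR on luteal cells, and prostaglandin E made by granulosa cells takes part in ovulation.

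Uterine and ovarian tissue came from female Jining gray goats of 1 farm that were kept alike and received no treatment. The 8 groups were the uterus and the ovary at day 1 and at months 2, 4 and 6 after birth, with 5 libraries each, numbered by individual. The labels do not say whether a uterus and an ovary with the same number came from 1 animal, and p-values measure the spread between these libraries. Bulk RNA was sequenced to between 31.9 and 62.7 M counts per library, and levels are given as CPM, a gene's counts relative to the total of its library. CPM is not scaled by gene length, so levels are compared between libraries and not between genes.

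Organ markers followed the labels in most libraries. At month 6, HOXA10, HOXA11 and ESR1 of the 4 uterine stroma genes were called higher in the uterus, and 4 of 4 granulosa genes and 3 of 3 oocyte genes were called lower. Ovary day 1 library 3 stood apart: FSHR, the granulosa receptor for follicle-stimulating hormone, reached 0.0701 CPM there, while no other ovary library was below 2.91 CPM. The egg coat gene ZP3 was at 0, and ADIPOQ, a fat cell hormone, was at 1583 CPM. Uterus month 4 library 5 was low in HOXA10, a uterine patterning gene (2.59 CPM, with 28.8 the lowest of the remaining uterus libraries), held no FOXA2, a gland regulator, and had the elastin gene ELN at 9333 CPM. Ovary month 4 library 5 held STAR, the cholesterol carrier of steroid synthesis, at 2539 CPM against at most 49.3 in the others. Uterus month 6 library 2 stood apart in the prostaglandin genes themselves, as described next.

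In the uterus, PTGS2 and PTGER2 were called higher and PTGES lower at month 6 than at day 1. The other 7 genes did not pass the test. PTGS2 (the cyclooxygenase that cells induce on stimulation) and PTGER2 (one of the prostaglandin E receptors, which raises cyclic AMP) were both far higher in 1 month 6 library than in any other. PTGES, an inducible synthase of prostaglandin E, was high in 3 of the day 1 libraries and low at every later age. Calls here mean edgeR's quasi-likelihood test with a Benjamini-Hochberg adjusted p below 0.05 and a log2 fold change of 1 or more in either direction. By that rule 3 of 10 members were called, against 1.42% of the 18789 genes tested (0.66% higher and 0.756% lower). Without month 6 library 2, in limma-voom, or in a fit of these ages alone, no member was called. In bulk tissue, fewer cells of a type and less RNA per cell cannot be told apart.

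**Figure D1:**
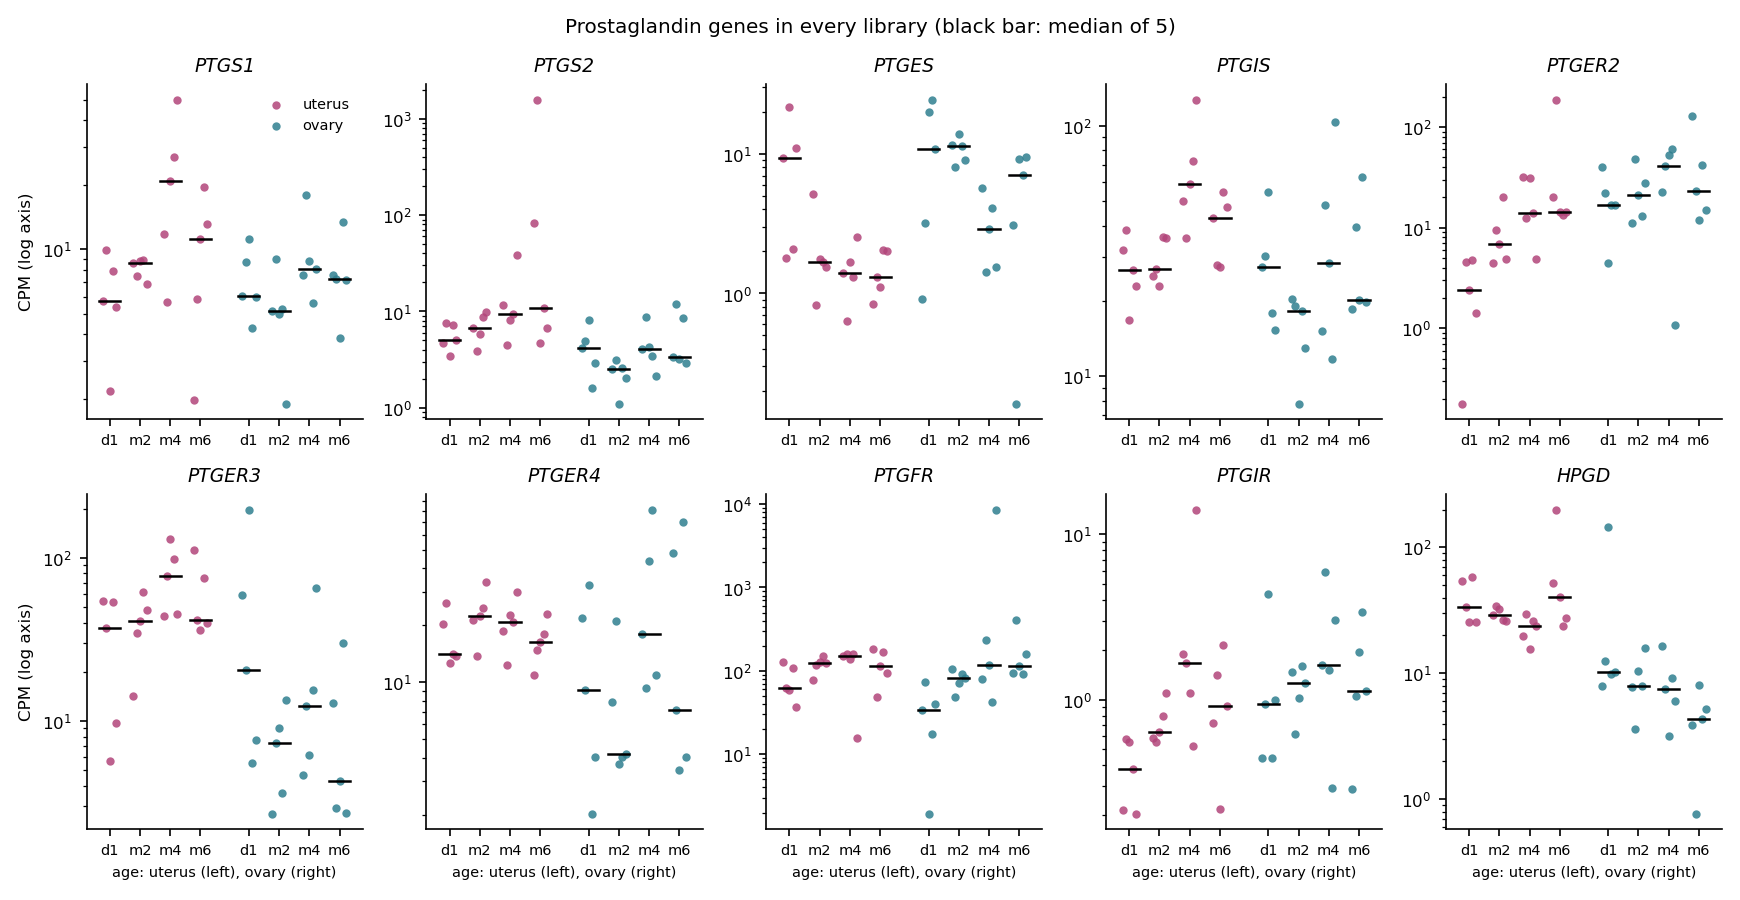
Level of each of the 10 genes in every library, as CPM on a log axis that differs between panels. Points are libraries (uterus on the left of each panel, ovary on the right, ages in order from day 1 to month 6), and black bars are medians of 5 libraries. Uterus month 6 library 2 is the top point for PTGS2 at 1576 CPM, and ovary month 4 library 5 is the top point for PTGFR at 8607 CPM.

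PTGS2 stood at 83.7, 1576, 4.75, 10.9 and 6.74 CPM in uterus libraries 1 to 5 at month 6, against 4.71, 7.52, 3.47, 7.21 and 5.00 at day 1. Library 2 alone held 93.7% of the PTGS2 signal of the month 6 group, library 1 was the next highest, and libraries 3 and 5 lay within the day 1 range. The log2 fold change was 5.94 ± 1.36 (SE, n = 5 each, adjusted p = 0.0357). Without month 6 library 2 it was 2.27 ± 0.75 and the call was lost (adjusted p = 0.171). The call was also lost without any 1 of the 5 day 1 libraries (adjusted p between 0.0644 and 0.0893), in limma-voom (2.68, adjusted p = 0.331), without the low-count filter (0.0503) and in a fit of these ages alone (0.143), while DESeq2 kept it (5.95, adjusted p = 1.38e-05).

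PTGS1, the constitutive cyclooxygenase, did not follow PTGS2. It was at 1.98, 5.85, 11.2, 19.6 and 13.1 CPM in the uterus at month 6, against 5.73, 9.92, 2.17, 7.92 and 5.37 at day 1, so the groups overlapped (0.78 ± 0.56, adjusted p = 0.499). The library with the most PTGS2 at month 6 had less PTGS1 than 3 of the other 4, and the library with the next most PTGS2 had the least.

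Of the synthases, PTGES was at 0.845, 1.31, 1.11, 2.05 and 2.02 CPM in the uterus at month 6, against 9.42, 1.81, 21.8, 2.08 and 10.9 at day 1. Day 1 libraries 1, 3, 4 and 5 lay above every month 6 library, library 4 only just, and day 1 library 2 lay within the month 6 range. The log2 fold change was -2.67 ± 0.66 (adjusted p = 0.0487). The call sat at the threshold: it was lost when day 1 library 1, 3 or 5 or any 1 of the 5 month 6 libraries was left out (-2.83 to -2.05, adjusted p between 0.0639 and 0.136). It was also lost in limma-voom (adjusted p = 0.151), without the low-count filter (0.0586) and in a fit of these ages alone (0.122), and was kept in DESeq2 (0.00109). The 3 day 1 libraries with high PTGES also held VMO1, a secreted protein gene, at 13.4, 309 and 145 CPM, against 0.684 and 0.432 in day 1 libraries 2 and 4. PI3, which encodes the protease inhibitor elafin of epithelia, was at 28.7, 84.3 and 6.88 CPM in the same 3 libraries, against 0.263 and 0. The summed epithelial markers (EPCAM, KRT8, KRT18, CDH1 and FOXA2, of which 0 of 5 were called) ran from 441 to 951 CPM at month 6 and from 599 to 1300 at day 1, and their part in the fall of PTGES was not tested. PTGIS, the prostacyclin synthase, averaged 40.1 ± 12.0 CPM in the uterus at month 6 and 27.3 ± 8.28 at day 1 (SD, n = 5 each), with overlapping libraries and no call (0.59 ± 0.33, adjusted p = 0.362).

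Among the receptors, PTGER2 was at 20.0, 187, 14.5, 13.5 and 14.5 CPM in the uterus at month 6, against 0.177, 4.59, 2.40, 4.77 and 1.41 at day 1. All 5 month 6 libraries lay above all 5 day 1 libraries, as did 1.93% of the 20245 genes with a mean of at least 0.1 CPM. The log2 fold change was 4.26 ± 0.90 (adjusted p = 0.0262). Without month 6 library 2 it was 2.58 ± 0.65 (adjusted p = 0.084), and the call was also lost without day 1 library 3 (adjusted p = 0.0686) or day 1 library 5 (0.0522), in limma-voom (3.87, adjusted p = 0.0569) and in a fit of these ages alone (adjusted p = 0.111). By age the medians of PTGER2 in the uterus were 2.40, 6.97, 14.0 and 14.5 CPM at day 1 and months 2, 4 and 6, so the median at month 4 was close to that at month 6.

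PTGFR, the receptor for prostaglandin F, was at 184, 49.2, 114, 167 and 94.6 CPM in the uterus at month 6, against 126, 62.7, 58.3, 108 and 36.6 at day 1. The groups overlapped and the difference was not called (0.67 ± 0.44, adjusted p = 0.445). Library 2, the highest in PTGS2 and PTGER2, was the lowest of the month 6 group in PTGFR. PTGER3, a prostaglandin E receptor that lowers cyclic AMP, had means of 61.0 ± 32.6 CPM at month 6 and 32.0 ± 23.3 at day 1 (SD, n = 5 each; 0.99 ± 0.52, adjusted p = 0.335). PTGER4, which like PTGER2 raises cyclic AMP, stood at 16.6 ± 4.39 CPM in month 6 uteri, against 17.3 ± 5.70 CPM in day 1 uteri (log2 fold change -0.03 ± 0.28, adjusted p = 0.973). The prostacyclin receptor PTGIR was between 0.219 and 2.15 CPM at month 6 and between 0.204 and 0.578 at day 1 (1.52 ± 0.77, adjusted p = 0.321).

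HPGD, the dehydrogenase that inactivates prostaglandins, was at 52.2, 200, 40.5, 23.7 and 27.8 CPM in the uterus at month 6, against 54.1, 33.7, 25.4, 58.6 and 25.4 at day 1. Library 2 was again the highest, and the other 4 month 6 libraries lay within or just below the day 1 range (0.83 ± 0.45, adjusted p = 0.353). Without library 2 the log2 fold change was -0.11 ± 0.28.

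**Figure D2:**
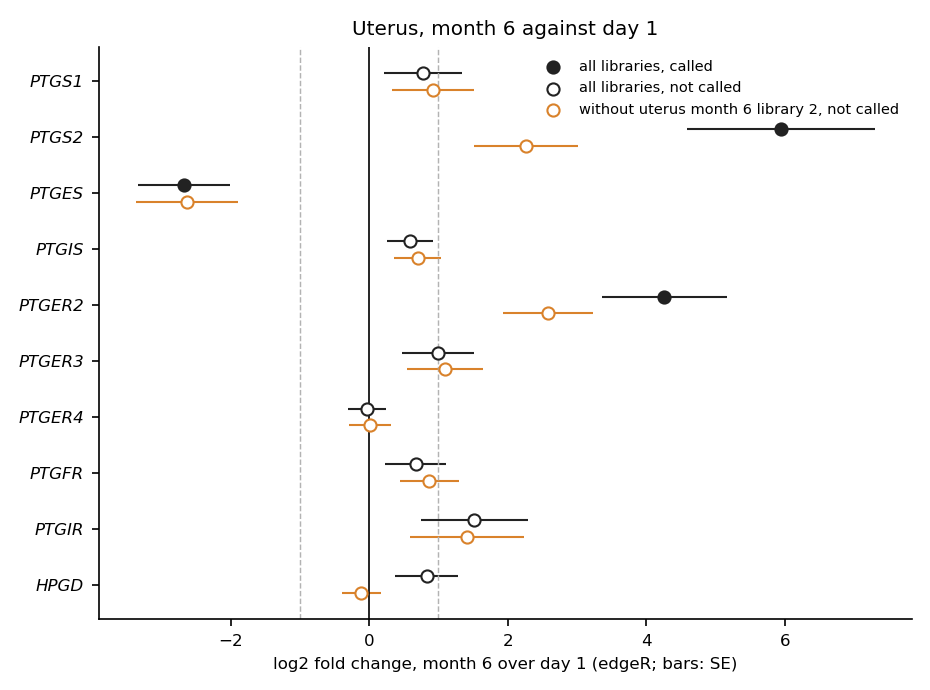
Log2 fold change of each gene in the uterus, month 6 over day 1, from edgeR, with bars for the SE. Black points use all libraries and orange points leave out uterus month 6 library 2, filled points were called, and dashed lines mark a log2 fold change of 1 in either direction. PTGS2 drops to 2.27 and PTGER2 to 2.58 without that library, and PTGES stays at -2.63.

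The month 6 uterus library that set these values apart was examined further. Library 2 had PLA2G4A, the cytosolic phospholipase that frees arachidonic acid, at 305 CPM, against 56.4 to 89.4 in the other 4 month 6 libraries. PLA2G4A and PTGS2 are neighbours in the RefSeq annotation of the goat assembly ARS1.2, with 0 protein-coding genes between them. GRP, the gastrin-releasing peptide gene, was at 5841 CPM in library 2, against 94.9 to 248 in the other 4. Of the immediate early genes, JUNB was at 435 CPM and ATF3 at 40.9 CPM in library 2, each the highest of the 20 uterus libraries. EGR1 (30.2 CPM) and NR4A1 (13.2 CPM) were also highest there. FOS, FOSB and DUSP1 were higher in uterus month 4 library 5. JUN, at 67.7 CPM, lay within the range of the other 4 (33.6 to 92.7). The 8 immediate early genes summed to 727 CPM in library 2, against 135 to 207 in the other 4. By edgeR 0 of 8 were called between month 6 and day 1 (4 had an unadjusted p under 0.05, against 17.3% of all genes). The epithelial gene EPCAM was at 436 CPM in library 2, against 85.7 to 187, and FOXA2 at 37.5 CPM, against 6.02 to 20.3. CDH1 was also highest there, at 267 CPM against 115.5 to 166.3. The epithelial markers did not all rise: KRT8 was lowest in library 2 (145 CPM, against 163 to 251), and KRT18 was mid-range (65.5 CPM, against 41.9 to 97.6). The share of these markers in the PTGS2, PTGER2 and HPGD values of library 2 was not tested.

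**Figure D3:**
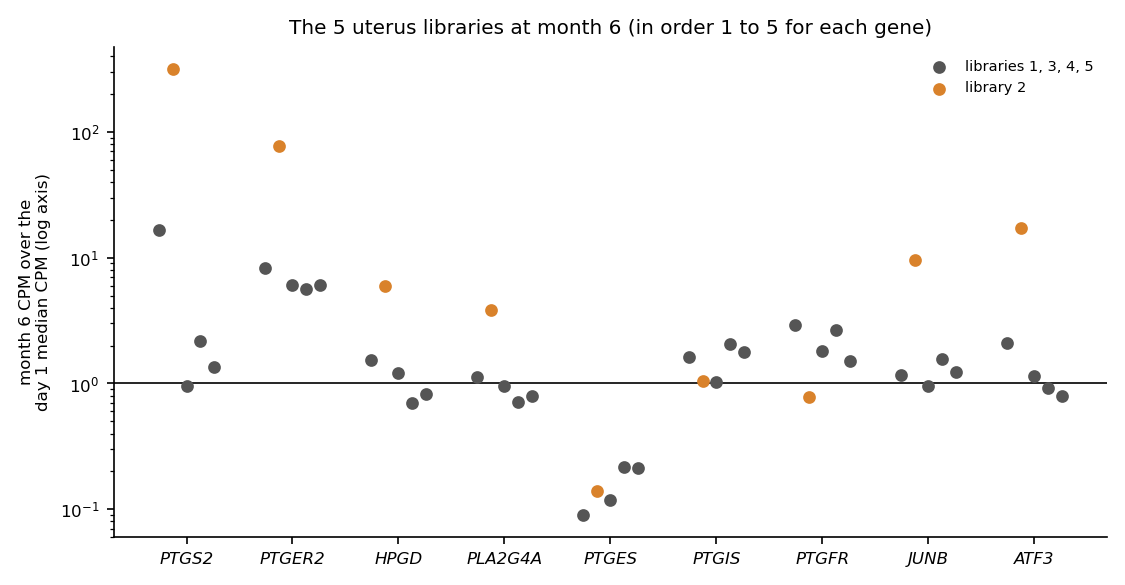
The 5 uterus libraries at month 6, each divided by the median of the 5 day 1 libraries, on a log axis; the line at 1 marks the day 1 median. Library 2 (orange) lies above the other 4 for PTGS2, PTGER2, HPGD, PLA2G4A, JUNB and ATF3, and is the lowest for PTGFR.

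Between neighbouring ages no member was called in the uterus. Month 2 against day 1 gave 0 of 10 calls in edgeR, where 0.016% of all genes were called. At an unadjusted p under 0.05, 2 members passed, PTGES (-2.15 ± 0.65) and PTGER2 (1.77 ± 0.82), where 12.3% of all genes did. DESeq2 called PTGES alone (-2.16, adjusted p = 0.0361) while limma-voom called 0. PTGES in the uterus was at 5.13, 0.827, 1.77, 1.67 and 1.56 CPM at month 2, below the 3 high day 1 libraries.

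Month 4 against month 2 also gave 0 of 10 calls in the uterus, where 0% of all genes were called. PTGIS (1.37 ± 0.33), PTGS1 (1.65 ± 0.57) and PTGIR (2.66 ± 0.80) had an unadjusted p under 0.05, as did 6.62% of all genes, and DESeq2 called PTGIS (1.39, adjusted p = 0.037) while limma-voom called 0. PTGIS was at 50.3, 35.9, 58.7, 72.8 and 127 CPM at month 4, against 25.1, 26.9, 22.9, 36.2 and 35.6 at month 2. Only library 2 of the month 4 group lay within the month 2 range. The highest library was the fifth, which lacked uterine markers as described above, and it was also the highest for PTGS1 (49.9 CPM) and PTGIR (14.1 CPM) and the lowest for PTGFR (15.8 CPM). Summed smooth muscle markers were at 4321 CPM and endothelial markers at 1044 CPM in that library, each the highest of the 20 uterus libraries, and their part in the PTGIS values was not tested.

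Month 6 against month 4 gave 0 of 10 calls in the uterus, again where 0% of all genes were called. At an unadjusted p under 0.05, 5 members passed, against 10.8% of all genes. DESeq2 called PTGS2 (4.41, adjusted p = 0.027) and limma-voom called 0.

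In the ovary no member was called between month 6 and day 1, where 0.0763% of the 19671 genes tested were called (0.0407% higher and 0.0356% lower). In edgeR 2 of 10 had an unadjusted p under 0.05, HPGD and PTGER3, both lower at month 6, against 14.3% of all genes, and DESeq2 and limma-voom each called 0. HPGD was at 3.89, 0.767, 8.07, 4.33 and 5.19 CPM in the ovary at month 6, against 7.99, 12.6, 146, 9.98 and 10.3 at day 1. All month 6 libraries but the third lay below every day 1 library, and the third lay just above the lowest of them. The log2 fold change was -3.19 ± 0.85 (adjusted p = 0.13), and without day 1 library 3, the one that lacked ovarian markers, it was -1.13 ± 0.53 (adjusted p = 0.285). PTGER3 was at 12.8, 2.93, 4.30, 29.8 and 2.71 CPM at month 6, against 58.8, 20.6, 197, 5.51 and 7.60 at day 1 (-2.58 ± 1.02, adjusted p = 0.258).

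PTGFR in the ovary was at 93.3, 412, 114, 92.8 and 161 CPM at month 6, against 34.4, 73.8, 1.93, 17.5 and 40.5 at day 1. Every month 6 library lay above every day 1 library, as did 0.78% of the 20245 genes compared. The difference was not called (2.49 ± 1.19, adjusted p = 0.351). Without ovary day 1 library 3, uterus month 4 library 5 and ovary month 4 library 5 together, PTGFR was called higher at month 6 (2.19 ± 0.54, adjusted p = 0.0265), a choice made after seeing the data.

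At month 4 PTGFR was at 79.9, 233, 117, 41.8 and 8607 CPM in the ovary. Library 5, the one rich in STAR, held 94.8% of the PTGFR signal of its group, and the other 4 lay near the month 2 and month 6 levels. LHCGR, the luteinizing hormone receptor, was at 285 CPM in that library, against at most 37.7 in the other 19 ovary libraries. It was the lowest of the 20 ovary libraries in PTGER2 (1.07 CPM) and the highest in PTGIS (103 CPM). Against month 2, PTGFR differed by 4.68 ± 1.31 at month 4, which was not called (adjusted p = 0.549). Between month 6 and month 4 it differed by -3.53 ± 1.24, and without library 5 the sign turned (0.69 ± 0.67).

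No member was called between neighbouring ages in the ovary. For month 2 against day 1, 0.00508% of all genes were called, and for month 4 against month 2 and month 6 against month 4, 0%. At an unadjusted p under 0.05 edgeR passed 2, 5 and 1 members in these steps, against 7.56%, 8.9% and 2.64% of all genes, and DESeq2 and limma-voom called 0 in each. PTGES at month 4 was at 5.73, 1.43, 2.88, 4.07 and 1.56 CPM in the ovary, against 11.5, 8.08, 13.9, 11.4 and 9.06 at month 2. Every month 4 library lay below every month 2 library, as did 0.726% of the 20245 genes compared, and the change was -1.84 ± 0.81 (adjusted p = 0.553).

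PTGES varied widely among ovaries at day 1 (0.912 to 24.4 CPM) and at month 6 (0.161 to 9.55 CPM). It varied less at month 4 (1.43 to 5.73 CPM) and least at month 2 (8.08 to 13.9 CPM). PPARG, a nuclear receptor of fat and granulosa cells, was among the 3 genes whose log2 CPM was most like PTGES over the 20 ovary libraries (Pearson r = 0.889, Spearman rho = 0.914), and was named for that likeness. Day 1 library 4, with the most PTGES at 24.4 CPM, had PPARG at 112 CPM, and day 1 library 1, with 0.912 CPM of PTGES, had PPARG at 8.27 CPM. Day 1 library 3, which lacked granulosa markers and held ADIPOQ at 1583 CPM, had PTGES at 19.9 CPM and PPARG at 106 CPM. The 4 granulosa markers (FSHR, AMH, FOXL2 and CYP19A1) did not order the ovaries alike. Month 6 library 2, with the least PTGES at 0.161 CPM, had the lowest FSHR (2.91 CPM), AMH (2.18 CPM) and CYP19A1 (1.86 CPM) of its group. Its FOXL2 was the highest of the group (81.2 CPM). Month 4 library 4, with 4.07 CPM of PTGES, had CYP19A1 at 843.5 CPM, the highest of the 20. The 4 markers summed to between 88.2 and 700 CPM at month 6 and between 0.421 and 559 at day 1, and their part in the PTGES values was not tested.

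PTGER4 was high in a few ovaries, and those ovaries also held epithelial transcripts. It was at 48.3, 7.10, 3.46, 70.0 and 4.02 CPM in the ovary at month 6, against 21.9, 9.15, 32.5, 2.02 and 4.03 at day 1, with no call (0.89 ± 0.89, adjusted p = 0.716). At month 4 the values were 17.9, 9.29, 43.8, 81.5 and 10.9 CPM. Month 6 libraries 1 and 4 and month 4 libraries 3 and 4, the 4 highest in PTGER4, had EPCAM at 260, 205, 173 and 248 CPM, the 4 highest of the ovary, and FOXA2 at 5.87, 5.64, 4.72 and 6.56 CPM. In the 3 other month 6 libraries EPCAM lay between 1.56 and 6.01 CPM, and FOXA2 was at 0 in library 3. The 5 epithelial markers summed to between 32.7 and 1380 CPM in the ovary at month 6 and between 24.9 and 572 at day 1. EPCAM was set beside PTGER4 after the values were seen, and its part in the PTGER4 values was not tested. PTGER2 was highest in the same month 6 library 1 (128 CPM), against 11.8 to 41.9 in the other 4.

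**Figure D4:**
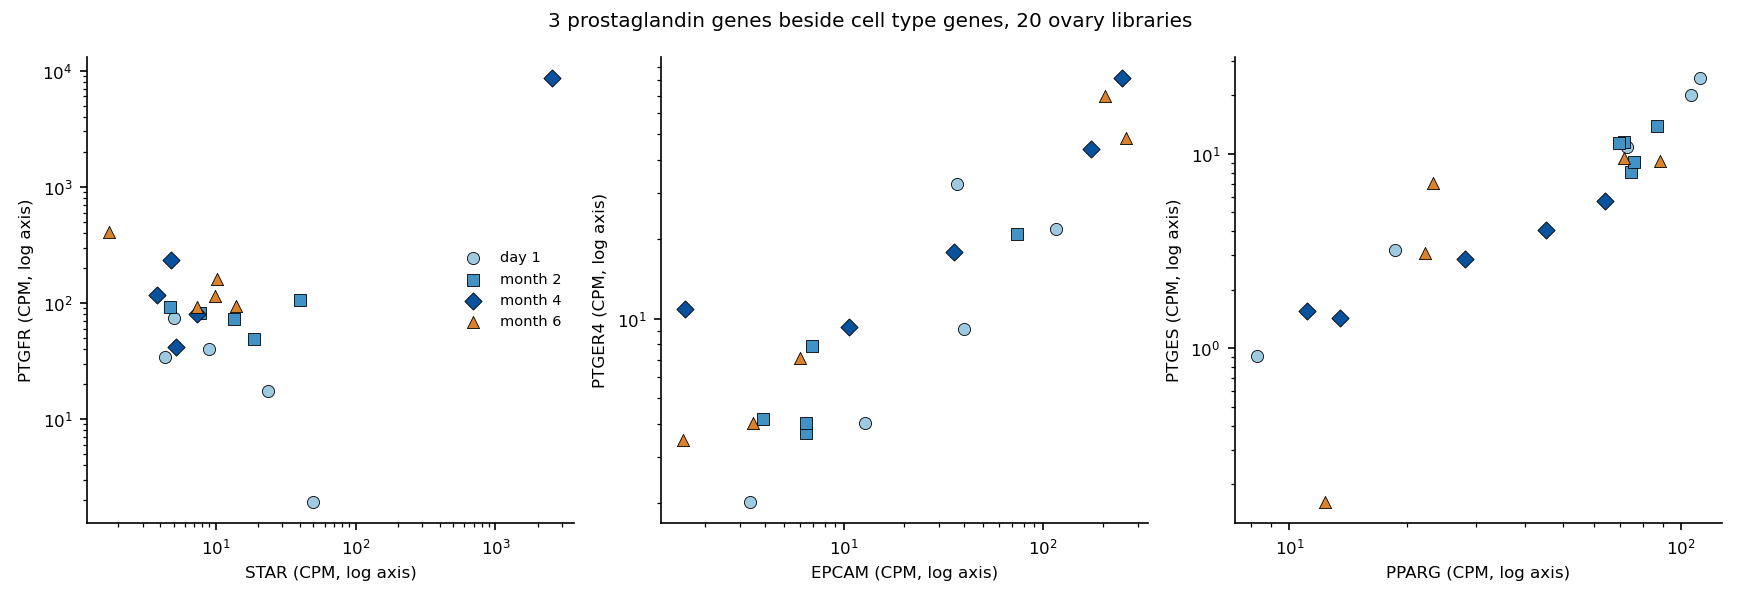
PTGFR against STAR, PTGER4 against EPCAM and PTGES against PPARG in the 20 ovary libraries, as CPM on log axes; symbols mark the age. Ovary month 4 library 5 lies alone at the top right for PTGFR (8607 CPM), the 4 libraries with EPCAM between 173 and 260 CPM are the 4 highest for PTGER4, and PTGES runs from 0.161 to 24.4 CPM along PPARG.

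PTGS2 in the ovary stayed low at all ages: its medians were 4.14, 2.55, 4.04 and 3.36 CPM at day 1 and months 2, 4 and 6, and its highest value of the 20 libraries was 11.9 CPM, in month 6 library 2. PTGS1 medians were 6.06, 5.16, 8.05 and 7.29 CPM over the same ages, and PTGIR medians were 0.943, 1.26, 1.61 and 1.13 CPM.

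The uterus was then set against the ovary at each age. PTGER2 was lower in the uterus at day 1, PTGES lower and PTGER3 higher at month 2, PTGS1 higher and PTGFR lower at month 4, and PTGS2, HPGD and PTGER3 higher at month 6. The members' counts were near the share of all genes called at the 3 younger ages: 1 of 10 at day 1, lower (all genes 14.2%, with 3.94% higher and 10.3% lower), 2 of 10 at month 2 (all genes 16.3%, with 6.5% and 9.79%), and 2 of 10 at month 4 (all genes 11.1%, with 4.22% and 6.92%). At month 6, 3 of 10 were called, all higher, where 10.1% of all genes were (4.06% higher and 6.05% lower).

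HPGD at month 6 was at 52.2, 200, 40.5, 23.7 and 27.8 CPM in the uterus, against 3.89, 0.767, 8.07, 4.33 and 5.19 in the ovary. Every uterus library lay above every ovary library, as did 3.35% of the genes compared. The log2 fold change was 3.98 ± 0.75 (adjusted p = 0.000461). This call held under every alternative run, with log2 fold changes between 3.04 and 4.32 when 1 library was left out, and with limma-voom at 3.84 (adjusted p = 0.00122). HPGD also lay above the ovary in every uterus library at month 2, without a call (1.63 ± 0.68, adjusted p = 0.0859). With all libraries it was not called at day 1 (-0.09 ± 0.66, adjusted p = 0.952) or month 4 (1.56 ± 0.68, adjusted p = 0.12) either. Without ovary day 1 library 3, in which HPGD was at 146 CPM against 7.99 to 12.6 in the other day 1 ovaries, and without uterus month 4 library 5, HPGD was called higher in the uterus at day 1 (2.03, adjusted p = 0.00663), month 2 (1.69, adjusted p = 0.0134) and month 4 (1.47, adjusted p = 0.0479) as well.

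PTGS2 at month 6 was higher in the uterus by 5.88 ± 1.08 (adjusted p = 0.000368), with uterus values of 83.7, 1576, 4.75, 10.9 and 6.74 CPM against 3.36, 11.9, 3.22, 8.56 and 2.89 in the ovary. The organs overlapped in uterus libraries 3, 4 and 5. Without uterus library 2 the log2 fold change was 2.21 and still called (adjusted p = 0.0284), whereas limma-voom (2.82, adjusted p = 0.101) and a fit of these groups alone (5.85, adjusted p = 0.0684) did not call it. At month 2 PTGS2 was between 3.89 and 9.97 CPM in the uterus and between 1.10 and 3.16 in the ovary, with no overlap (1.60 ± 0.91, adjusted p = 0.222). At that age PTGS2, PTGIS, PTGER3 and HPGD lay above the ovary in every uterus library, as did 11.3% of the genes compared, and PTGIS was between 22.9 and 36.2 CPM in the uterus and between 7.75 and 20.4 in the ovary (0.88 ± 0.47, adjusted p = 0.187).

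PTGER3 was at 112, 41.3, 36.2, 75.3 and 40.1 CPM in the uterus at month 6, against 12.8, 2.93, 4.30, 29.8 and 2.71 in the ovary, with no overlap (2.62 ± 0.85, adjusted p = 0.0398). At month 2 the organs did not overlap either, with 14.2 to 61.6 CPM in the uterus and 2.69 to 13.4 in the ovary (2.38 ± 0.85, adjusted p = 0.0431). Both calls were close to the threshold. The month 6 call was lost without uterus library 1, 2 or 4 or ovary library 1, 2, 3 or 5 (adjusted p between 0.0513 and 0.106), and the month 2 call without uterus library 2, 3, 4 or 5 or ovary library 1, 2, 3 or 4 (adjusted p between 0.0574 and 0.0992). Without the low-count filter both were lost as well (0.052 and 0.0569), and in a fit of these groups alone the month 6 call was (0.0503). At day 1 PTGER3 differed by -1.0 on the log2 scale (SE 0.81, adjusted p = 0.454), and without ovary day 1 library 3, at 197 CPM, the sign turned (0.52 ± 0.77).

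PTGER2 at day 1 was at 0.177, 4.59, 2.40, 4.77 and 1.41 CPM in the uterus, against 40.4, 22.2, 4.42, 16.7 and 17.0 in the ovary. Ovary library 3, which lacked ovarian markers, was the one that fell within the uterus range. The log2 fold change was -2.89 ± 0.86 (adjusted p = 0.0162), it was called whichever library was left out, and limma-voom did not call it (-3.23, adjusted p = 0.0783). At month 6 PTGER2 was not called (0.22 ± 0.80, adjusted p = 0.921), with 13.5 to 187 CPM in the uterus and 11.8 to 128 in the ovary.

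PTGES at month 2 was at 5.13, 0.827, 1.77, 1.67 and 1.56 CPM in the uterus, against 11.5, 8.08, 13.9, 11.4 and 9.06 in the ovary. Every uterus library lay below every ovary library, as did 12.7% of the genes compared, and the log2 fold change was -2.32 ± 0.76 (adjusted p = 0.0275). The call was lost without uterus library 2, 3, 4 or 5 or ovary library 3 (adjusted p between 0.0578 and 0.0702). At month 6 PTGES differed by -1.95 ± 0.75 (adjusted p = 0.0903), and it was called in DESeq2 (-1.97, adjusted p = 0.0364).

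The calls at month 4 depended on the libraries that stood apart. PTGFR was lower in the uterus (-4.05 with an SE of 1.0, adjusted p = 0.0064), with 149, 159, 139, 161 and 15.8 CPM in the uterus against 79.9, 233, 117, 41.8 and 8607 in the ovary. Without ovary library 5 the sign turned and nothing was called (0.21 ± 0.59, adjusted p = 0.863), and limma-voom (-1.20, adjusted p = 0.398) and a fit of these groups alone (0.176) did not call it either. PTGS1 was higher in the uterus (1.45 ± 0.50, adjusted p = 0.0469), and without uterus library 5, at 49.9 CPM, it was not called (0.79 ± 0.48, adjusted p = 0.265). That call was also lost without uterus library 3 or 4 or ovary library 1, 3, 4 or 5 (adjusted p between 0.06 and 0.122), in limma-voom (0.142), with DESeq2-type scaling (0.0507), without the low-count filter (0.0657) and in a fit of these groups alone (0.202). Without ovary library 5 PTGER3 was called higher in the uterus at month 4 (3.17 ± 0.88, adjusted p = 0.0159).

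PTGER4 and PTGIR were not called between the organs at any age. PTGER4 differed by 0.24 ± 0.68, 1.5 ± 0.69, -0.48 ± 0.68 and -0.61 ± 0.68 at day 1 and months 2, 4 and 6, and PTGIR by -2.01 ± 0.80, -0.75 ± 0.78, 0.91 ± 0.77 and -0.45 ± 0.77.

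**Figure D5:**
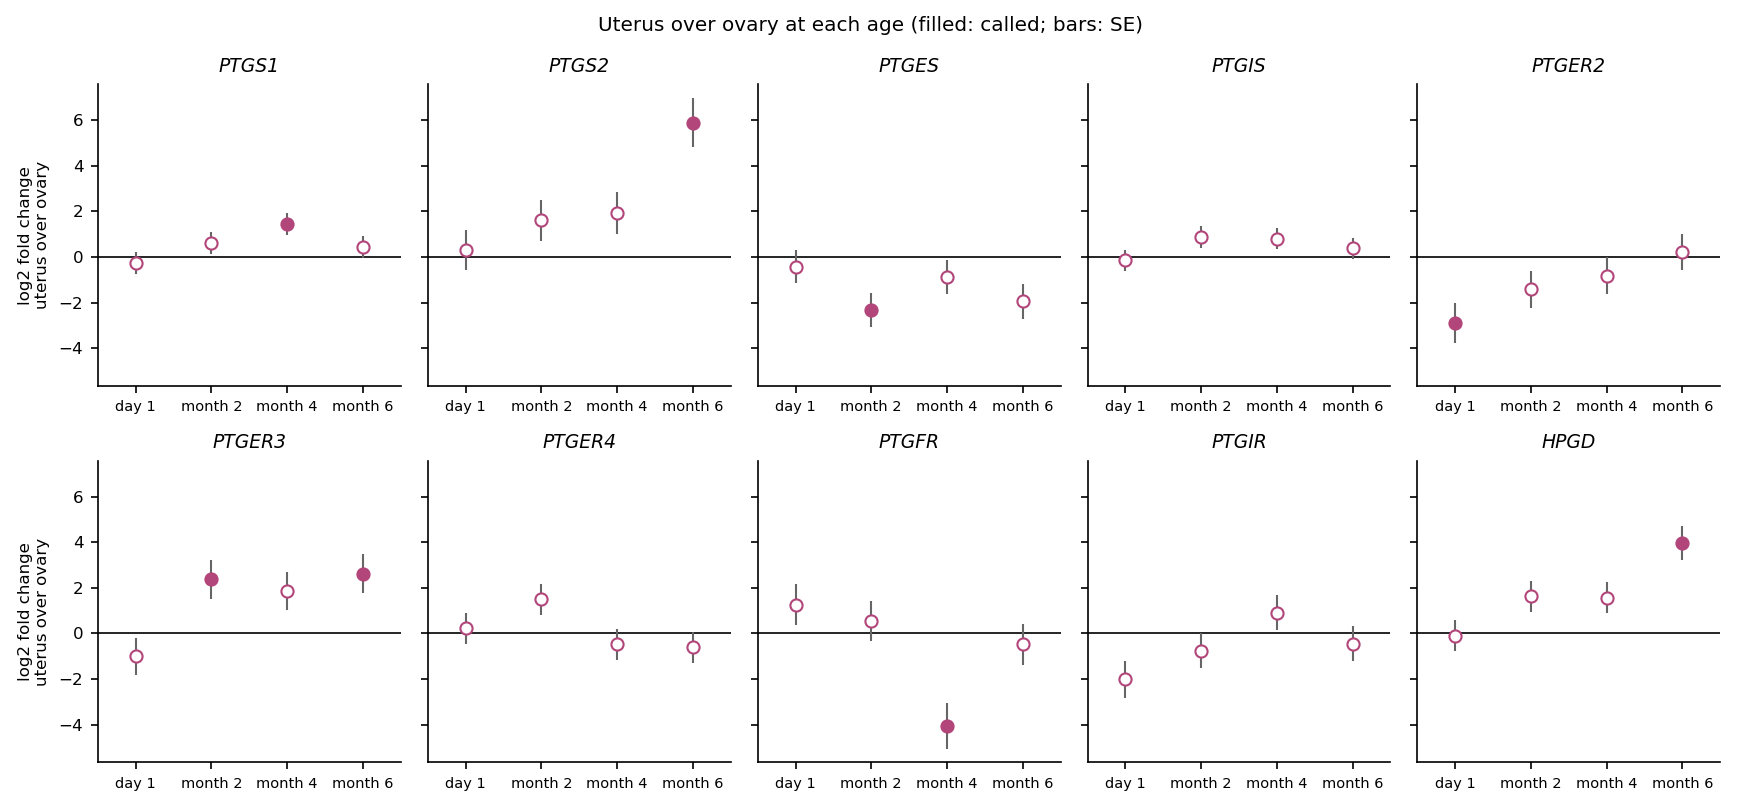
Log2 fold change of each gene, uterus over ovary, at day 1 and months 2, 4 and 6, from edgeR with bars for the SE. Filled points were called, as for HPGD (3.98) and PTGS2 (5.88) at month 6. The PTGFR point at month 4 (-4.05) turns to 0.21 without ovary month 4 library 5.

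Whether the change from day 1 to month 6 differed between the organs was tested directly. No member was called, where 0.234% of 20518 genes were (0.214% higher and 0.0195% lower). In edgeR 4 of 10 had an unadjusted p under 0.05, against 11.1% of all genes, and all 4 had a more positive change in the uterus, as did 56.9% of all genes: PTGS2 (5.57 ± 1.32, adjusted p = 0.0585), HPGD (4.07 ± 0.97, adjusted p = 0.0618), PTGER3 (3.62 ± 1.17, adjusted p = 0.181) and PTGER2 (3.11 ± 1.16, adjusted p = 0.27). DESeq2 called PTGS2, HPGD and PTGER3 (adjusted p = 0.000772, 0.00218 and 0.0473), and limma-voom called 0. The sizes rested on a pair of libraries. Without uterus month 6 library 2, PTGS2 differed by 1.90 ± 0.88, PTGER2 by 1.42 ± 1.03 and HPGD by 3.13 ± 0.91 (adjusted p = 0.506, 0.765 and 0.178). Without ovary day 1 library 3, HPGD differed by 2.01 ± 0.72 and PTGER3 by 2.09 ± 1.06 (adjusted p = 0.197 and 0.446). PTGS2 was called without uterus month 6 library 3, 4 or 5 or ovary day 1 library 4 (adjusted p between 0.0233 and 0.037), and HPGD without uterus month 6 library 5 or ovary day 1 library 1, 4 or 5 (adjusted p between 0.0288 and 0.0483).

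The rest of the pathway was followed in 31 further genes, of which 26 were matched by symbol. None was called between ages in either organ, out of 21 tested in the uterus and 24 in the ovary. Of all genes, at most 1.42% in the uterus and 0.0763% in the ovary were called in an age contrast. For month 6 against day 1, 3 had an unadjusted p under 0.05 in the uterus and 2 in the ovary in edgeR, shares no higher than the 17.3% and 14.3% of all genes. The medians of the list were -0.03 and -0.35, against 0.01 and -0.03 over all genes tested. Between the organs, 1 of 25 genes tested was called higher in the uterus and 5 lower at day 1, and 2 and 5 at month 2. At month 4 the counts were 2 and 3, and at month 6 they were 1 and 3. Of all genes, 3.94% were called higher and 10.3% lower at day 1, and 6.5% and 9.79% at month 2. The shares were 4.22% and 6.92% at month 4, and 4.06% and 6.05% at month 6.

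On the supply side, PLA2G4A was higher in the uterus at months 2, 4 and 6 (1.58 ± 0.40, 1.15 ± 0.39 and 2.37 ± 0.41, adjusted p = 0.00428, 0.0452 and 0.000174). At month 6 it was between 56.4 and 305 CPM in the uterus and between 17.7 and 32.7 in the ovary, with no overlap. The phospholipases PLA2G1B (all ages), PLA2G4D (all but month 4), PLA2G5 (day 1) and PLA2G4F (month 4) were called lower in the uterus. PLA2G1B and PLA2G4D were each at 0 in most uterus libraries, so no fold is given for them.

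Of the other synthases, AKR1B1, an aldose reductase that makes prostaglandin F in bovine endometrium, was lower in the uterus at day 1, month 2 and month 4 (-2.55 ± 0.41, -2.24 ± 0.40 and -1.51 ± 0.39, adjusted p = 4.69e-05, 0.000176 and 0.0088). At month 6 AKR1B1 averaged 33.0 ± 24.8 CPM in the uterus and 72.4 ± 23.6 in the ovary (-1.11 ± 0.39, adjusted p = 0.0581). The constitutive prostaglandin E synthases did not pass the test in any of these comparisons: in the uterus at month 6 and day 1 PTGES2 averaged 10.8 ± 5.54 and 10.1 ± 2.15 CPM, and PTGES3 averaged 170 ± 34.9 and 178 ± 53.8 CPM.

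Among receptors and transporters, PTGER1, a prostaglandin E receptor that raises calcium, was higher in the uterus at month 2 (4.38 ± 1.15, adjusted p = 0.0062) and month 4 (3.54 ± 1.07, adjusted p = 0.024), at a mean of 0.676 CPM in the uterus and 0.0275 in the ovary at month 2. The exporter ABCC4 was lower in the uterus at day 1 (-1.59 ± 0.36, adjusted p = 0.00185) and month 2 (-1.04 ± 0.36, adjusted p = 0.0352). SLCO2A1, the prostaglandin uptake carrier, was not called in any comparison, and its highest values were 37.0 CPM in ovary month 4 library 5 and 22.2 CPM in the uterus at month 4. Of the reductases that act after HPGD, PTGR1 was lower in the uterus at month 2 (-1.09 ± 0.33, adjusted p = 0.0182) and month 6 (-1.12 ± 0.33, adjusted p = 0.0242), and PTGR2 was higher at day 1 (1.19 ± 0.42, adjusted p = 0.0428). IL1B, a cytokine known to induce PTGS2, was called lower in the uterus at month 6 than at day 1 (0.658 ± 0.149 CPM against 2.53 ± 1.82, -1.89 ± 0.46, adjusted p = 0.0465), the only one called of the 5 inflammation genes tested there. That call was close to the threshold, and alternatives are not given for it. Day 1 library 5, at 0.775 CPM, lay within the month 6 range of IL1B (0.488 to 0.843 CPM). The cytokine gene IL6 was at 5.38 CPM in uterus month 6 library 2, the library with the most PTGS2, against at most 1.26 in the other 19 uterus libraries. The part of these inflammation genes in the PTGS2 values was not tested.

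Genes of most like pattern were named by Pearson correlation of log2 CPM over the 20 libraries of an organ, which share their scaling and in which single libraries weigh heavily. In the uterus, PTGER2 was most like GRP (r = 0.875, rho = 0.913), PVR and CCDC126, and GRP was at 248, 5841, 94.9, 194 and 100.8 CPM at month 6, against 0.347 CPM or less at day 1. PTGS2 was most like TINAGL1 (r = 0.93, rho = 0.421), SLC38A2 and PLAUR. HPGD was most like FAM104A (r = 0.918, rho = 0.877), ZDHHC20 and PSPH, and PTGES was most like VMO1 (r = 0.931, rho = 0.795), PI3 and FXYD3. In the ovary, PTGS2 was most like LYNX1, FCHO2 and MIR143, PTGER2 like EFHC2, CCDC148 and WDR35, and PTGES like EHHADH, PPARG and KLHL31, with r between 0.857 and 0.914. PTGFR was added to this list after its values were seen: in the uterus it was most like CHRM2, a muscarinic receptor of smooth muscle (r = 0.94, rho = 0.808).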

How the data were processed

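Total RNA of 40 tissue samples was extracted with TRIzol and sequenced on standard Illumina libraries, per the labels' protocols. The authors deposited raw whole-number counts per gene in 1 table. The tools named are RSEM 1.3.0, StringTie 1.3.3b, HISAT2 and fastp 0.23.1, per the submitters' processing notes. Which tool did what, the build, the gene models, strandedness and multi-mapped reads are not given in the sources. Overlapping genes and near-identical copies are uncertain to that extent, and no coordinates are given. All 28910 gene numbers matched a RefSeq table of goat assembly ARS1.2, used for names and neighbours only; 1139 loci assembled from the reads (1.16% to 5.47% of counts) stayed in the totals. The libraries of a group differed beyond sampling noise (smallest chi-square per degree of freedom 83.5), so each counted as 1 sample.

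Counts were tested with edgeR 4.0.16 in R 4.3.3 (TMM, filterByExpr, robust quasi-likelihood fit). The 20 libraries of an organ were fitted together for age contrasts, and all 40 for organ contrasts and for the organ difference in change, without a block. Benjamini-Hochberg adjustment ran over all genes tested, p-values are two-sided, and adjusted p-values are edgeR's unless another tool is named. SE is the log2 fold change divided by the root of F. Levels are CPM of the library total with the SD of 5 libraries. The fit was tested on simulated data that had the same relative spread for every gene and no outlying library. That test does not cover calls that rest on single libraries. Alternatives were DESeq2 1.42.0, limma-voom (limma 3.58.1), DESeq2-type scaling, no filter, no fold minimum, a fit of the compared groups alone, a replicate block, and left-out libraries; the set of 3 libraries left out together was chosen after seeing the data.

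The members, gene lists and contrasts were chosen with earlier results of these data known. The text names all members, each gene of the pathway list that was called, 5 pathway genes whether called or not (PLA2G4A, AKR1B1, PTGES2, PTGES3, SLCO2A1), and the 3 genes most like PTGS2, PTGER2, PTGES and HPGD in each organ (log2 CPM, prior count 2; those of HPGD in the ovary are not reported here); called marker genes between organs are given as counts by list.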

Additional observations from a re-analysis of the deposited data

Results flagged for a closer look

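In a test of each gene and group for 1 library far from the other 4 (Dixon's ratio on CPM), 16 of 80 groups stood out, 15 by a high and 1 by a low library. For normally distributed values, chance alone would pick about 1 in 20 groups. The ratio was taken on CPM without a log scale, so that rate need not hold here and gives no measure of excess. Groups of 1 gene or 1 library are also not independent.

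Several of these values came from the same libraries. Uterus month 6 library 2 was far above the rest of its group in PTGS2 (1576 CPM), PTGER2 (187 CPM) and HPGD (199.9 CPM). Uterus month 4 library 5 was far above in PTGS2 (38.64 CPM) and PTGIR (14.1 CPM) and far below in PTGFR (15.78 CPM). Ovary day 1 library 3 was far above in PTGER3 (197.2 CPM), PTGIR (4.345 CPM) and HPGD (145.8 CPM), and ovary month 4 library 5 in PTGFR (8607 CPM) and PTGER3 (65.33 CPM).

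The other 5 were spread over 5 libraries: PTGS1 in ovary month 4 library 2 (17.86 CPM), PTGES in uterus month 2 library 1 (5.13 CPM), PTGER2 in ovary month 6 library 1 (128.3 CPM), PTGER4 in ovary month 2 library 2 (20.93 CPM) and PTGFR in ovary month 6 library 2 (411.8 CPM).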

How the results depend on the processing

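The number of members called moved with the tool and with single libraries. For uterus month 6 against day 1 it was 3; limma-voom and a fit of these groups alone gave 0, no filter 1, the replicate block 1, and leaving out 1 library 0 to 2. For uterus against ovary it was 1 at day 1 (limma-voom 0, DESeq2 2, without ovary day 1 library 3 and uterus month 4 library 5 2, without these and ovary month 4 library 5 2, 1 library left out 1 to 2) and 2 at month 2 (no filter 1, these groups alone 6, 1 library left out 0 to 2). At month 4 it was 2 (DESeq2, limma-voom, DESeq2-type scaling and no filter 1, these groups alone and the replicate block 0, 1 library left out 1 to 2), and at month 6 it was 3 (these groups alone 1, 1 library left out 2 to 3). For the organ difference in change it was 0 (DESeq2 3, without the pair of libraries 1, without the 3 libraries 1, 1 library left out 0 to 2). Neighbouring ages in the uterus gave 0, with 1 each in DESeq2 and 0 to 0 with 1 library left out, and ovary month 6 against day 1 gave 0, with 1 without the 3 libraries.

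Among the 58 log2 fold changes of at least 1 in size, directions turned in 5. Of the smaller ones, HPGD between month 6 and day 1 in the uterus (0.83) was -0.11 without uterus month 6 library 2. PTGER3 between uterus and ovary at day 1 (-1.0) was 0.23 with the replicate block, 0.52 without ovary day 1 library 3, 0.56 without the pair and 0.52 without the 3 libraries (1 library left out, -1.30 to 0.52). Without ovary month 4 library 5, or without the 3 libraries, PTGFR (-3.53) and PTGER3 (-1.10) between month 6 and month 4 in the ovary were 0.69 and 0.18 (1 library left out, -4.14 to 0.69 and -1.94 to 0.18), and PTGFR between uterus and ovary at month 4 (-4.05) was 0.21 and 0.46 (1 library left out, -4.44 to 0.21). PTGER2 between month 6 and month 4 in the uterus was -0.18 without uterus month 6 library 2 (1 library left out, -0.18 to 1.74). The causes beyond the libraries left out were not tested.

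The labels do not tie uterus and ovary libraries of the same number to 1 animal. Of the 20 same-number pairs of 1 age, 9 correlated above 0.1 in their deviations from the group means (median 0.0711, range -0.162 to 0.31), so the numbers were not taken to pair the samples. Of the 20, 10 correlated best with their own number among 5, a hint of pairing from the data and not from the design. In a fit of 1 organ the replicate block ties libraries of the same number at different ages, so it does not bear on pairing of the organs. Uterus libraries so tied had a median correlation of 0.0285 in their deviations. With that block in edgeR, uterus PTGS2 and PTGES between month 6 and day 1 had adjusted p = 0.208 and 0.122, and PTGER2 0.0441. Over all genes, calls for that contrast were 266, against 946 in DESeq2, 180 with no filter, 81 in a fit of these groups alone, 127 with the replicate block, 496 without the pair of libraries and 76 to 275 with 1 library left out. In the ovary they were 15, against 655 in DESeq2, 6 in limma-voom, 0 in a fit of these groups alone, 6 with the replicate block, 322 without the pair and 855 without the 3 libraries. Depth limits the phospholipases at or near 0 in the uterus (PLA2G1B, PLA2G4D, PLA2G5 and PLA2G4F), PTGER1 and PTGIR. For the other members the spread between 5 libraries sets the error.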
